A study of Homo sapiens with 6 samples.

Results

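The 10 genes described here are the mechanically gated channel PIEZO1, its paralog PIEZO2, the cation channel TRPV4, the coactivators YAP1 and WWTR1 (the gene for TAZ), and the YAP and TAZ target genes CCN1, CCN2, ANKRD1, AMOTL2 and LATS2. They were picked by gene symbol from the 60671 genes of the deposited table, and each symbol occurred there. RNA had been sequenced from HaCaT cells, a line of immortalised human keratinocytes, in 6 libraries. The first group (n = 3 libraries) was kept for 24 h in serum-free, high-glucose medium with interferon beta (IFN-beta, a secreted type I interferon) at 160 ng/mL, and the control group (n = 3 libraries) was kept for 24 h in that medium with no interferon added. The genotype is given as wild type in both groups, no transgene or other agent is named, and both groups lack serum.

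PIEZO1 forms a trimeric channel in the plasma membrane that opens when the membrane is stretched and lets calcium into the cell. In skin, mechanical and adhesive cues also reach the nucleus through YAP and TAZ, which do not bind DNA themselves but act with TEAD transcription factors. In the Hippo path the kinase MST acts upstream of LATS, and LATS phosphorylates YAP and TAZ and keeps them in the cytoplasm. Several TEAD targets feed back on this path, since AMOTL2 and LATS2 restrain YAP and TAZ.

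TEAD factors recognise the letters GGAATG, and these were searched in both orientations in the 250 bases before each RefSeq start site (build GRCh38.p14). Windows were held for 8 of the 10 genes, while TRPV4 and CCN1 had none. The letters were found in 4 of the 10 windows of these genes, against 11.9% of all 35116 windows. CCN2, ANKRD1 and AMOTL2, which hold matches, were listed as YAP and TAZ targets, so this excess is not a test. The windows of WWTR1 lie 33441 and 78689 bases from the gene start in the deposited coordinates. The windows of CCN2 and ANKRD1, whose RNA differed most between the groups, are shown with that of YAP1 for comparison, with each GGAATG in capitals. CCN2 lies at chr6:131951373-131951622 on the minus strand, ANKRD1 at chr10:90921088-90921337 on the minus strand, and YAP1 at chr11:102110197-102110446 on the plus strand.
CCN2: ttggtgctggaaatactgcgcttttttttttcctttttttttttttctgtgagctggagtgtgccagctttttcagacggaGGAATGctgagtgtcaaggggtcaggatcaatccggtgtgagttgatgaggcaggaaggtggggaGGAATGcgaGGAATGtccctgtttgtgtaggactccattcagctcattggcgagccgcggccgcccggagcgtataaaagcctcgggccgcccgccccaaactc
ANKRD1: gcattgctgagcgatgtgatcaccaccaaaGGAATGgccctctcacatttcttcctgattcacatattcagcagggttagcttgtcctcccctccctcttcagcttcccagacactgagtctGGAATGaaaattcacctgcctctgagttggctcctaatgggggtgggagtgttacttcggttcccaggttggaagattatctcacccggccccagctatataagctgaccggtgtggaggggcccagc
YAP1: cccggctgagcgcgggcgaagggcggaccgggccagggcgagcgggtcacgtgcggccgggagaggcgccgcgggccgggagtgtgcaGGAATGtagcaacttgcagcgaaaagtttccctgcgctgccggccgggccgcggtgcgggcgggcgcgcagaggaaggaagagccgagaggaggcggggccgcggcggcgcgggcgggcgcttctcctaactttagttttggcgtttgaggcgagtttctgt

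CCN2 held 3 matches, which begin 169, 104 and 95 bases before the start site, a count reached by 0.0826% of all windows. ANKRD1 held 2 matches, 220 and 128 bases before the start, as 0.94% of windows held at least 2. YAP1 held 1 match, and 1 stood 69 bases before an inner start of AMOTL2 in the reverse letters CATTCC. The interferon-stimulated response element, GAAA, any 2 bases and GAAA again, and the STAT site TTCNNNGAA were in 0 of the 10 windows, against 3.02% and 6.57% of all windows. The AP-1 site TGANTCA was in 1 of them, that of ANKRD1, against 6.57%. A match describes letters in the window and is not evidence of binding, and 10 windows are too few for 0 matches to show a lack.

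Values are FPKM as the authors deposited them, that is, fragments per kilobase of gene scaled to the size of each library, with errors given as SD between libraries (n = 3 per group). Differences are on the log2(FPKM + 0.5) scale with their SE, tested with limma over all genes and called at a Benjamini-Hochberg adjusted p under 0.05. The libraries held between 25832158 and 30594527 reads. As a check on the labels, all 9 listed interferon-response genes were higher, with MX1 at 680.02 ± 15.7 FPKM in IFN-beta and 4.57 ± 0.204 FPKM in control libraries. The keratinocyte genes KRT5 (965 ± 14.8 FPKM with IFN-beta and 1374 ± 81.03 FPKM in control) and KRT14 (1099 ± 32.2 FPKM with IFN-beta and 1033 ± 42.8 FPKM in control) were among the 12 keratinocyte markers, all tested. Of these 7 were higher (58.3%) and 2 lower (16.7%), beside 22.5% and 19.9% of all genes tested. Among these markers the most positive difference was that of COL17A1 (0.53) and the most negative that of KRT15, at 160 ± 2.30 FPKM with IFN-beta and 398 ± 77.1 FPKM in control (-1.29). Some markers of other cell types were detected. Their calls stand beside the same shares of all genes, and each of these lists had few tested genes. The summed level of 10 fibroblast markers was 24.2 to 26.3 FPKM with IFN-beta and 21.8 to 24.8 FPKM in control, with 2 of 3 tested genes higher and DCN at 0, and most of it was FBLN1 (20.4 ± 0.817 FPKM with IFN-beta and 19.8 ± 1.20 FPKM in control, not passed). That of 8 endothelial markers was 6.21 to 6.43 FPKM with IFN-beta and 3.44 to 4.21 FPKM in control, with 2 of 2 tested genes higher (CDH5 by 1.01 on the log2 scale) and TEK and CLDN5 at 0. For 8 immune markers it was 4.51 to 4.88 FPKM with IFN-beta and 3.30 to 4.63 FPKM in control, with 1 of 2 tested genes higher and LYZ at 0. For 7 melanocyte markers it was 3.34 to 3.91 FPKM with IFN-beta and 4.14 to 4.69 FPKM in control, with 1 of 2 tested genes lower and MLANA, TYR, TYRP1 and SOX10 at 0. For 7 Merkel and sensory cell markers it was 8.78 to 10.6 FPKM with IFN-beta and 13.1 to 16.9 FPKM in control, with 1 of 3 tested genes lower (SOX2, 6.997 ± 0.604 FPKM with IFN-beta and 11.6 ± 2.08 FPKM in control, log2 difference -0.67) and ATOH1 and CHGA at 0. The part of these markers in the results was not tested. In bulk RNA, fewer cells of a type and less RNA per cell cannot be told apart.

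Of the 10 genes, 9 passed the filter of a mean of 0.5 FPKM over the 6 libraries and were tested, and PIEZO2 was not. With IFN-beta, ANKRD1, CCN2, CCN1, AMOTL2, WWTR1, LATS2 and PIEZO1 were higher, 7 of the 9, while YAP1 and TRPV4 did not pass. Over all 15163 genes tested, 22.5% were called higher and 19.9% lower. CCN2 passed the filter only through its level in the IFN-beta libraries. Of the 8 genes that the control level alone would have admitted, 6 were higher, with a median log2 difference of 0.45, beside 0.01 over all genes tested.

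**Figure D1:**
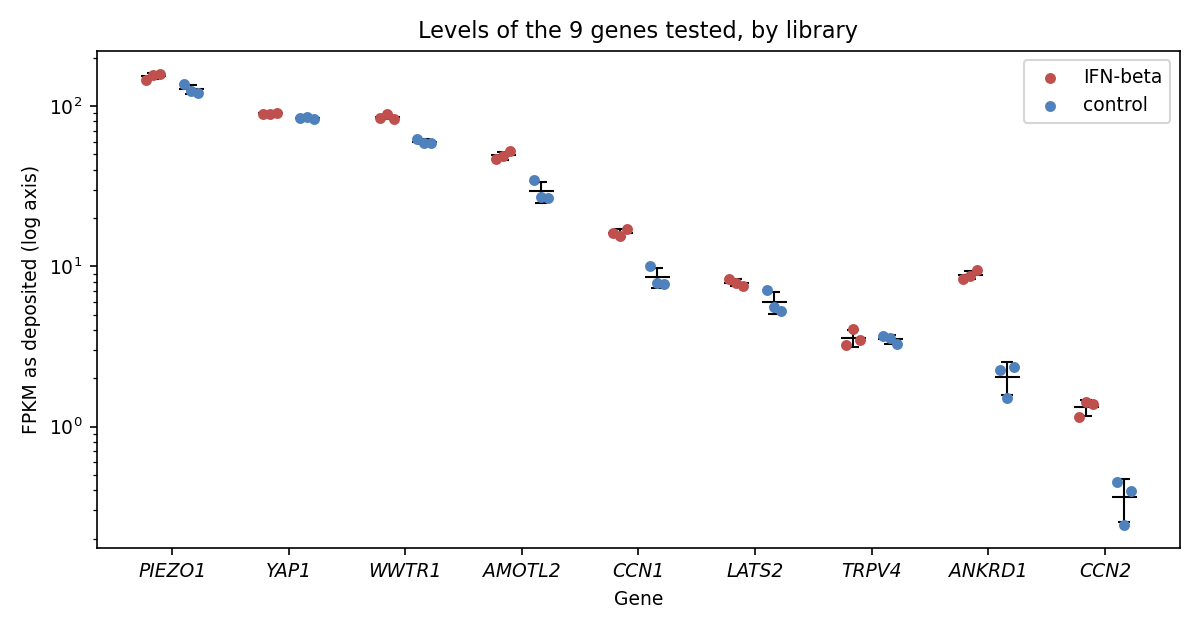
FPKM as deposited (log axis) of the 9 genes tested, with 1 point per library, IFN-beta left of control, and the mean with SD in black (n = 3 per group). The groups are apart in all genes drawn but TRPV4, and the widest gaps are those of ANKRD1 and CCN2.

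Of the channels among the 10 genes, PIEZO1 and TRPV4 were tested, and PIEZO1 (ENSG00000103335, chromosome 16, 88715338 to 88785220 as the table gives it, minus strand) passed. It stood at 146, 157 and 157 FPKM in the IFN-beta libraries, against 137, 124 and 120.3 FPKM in the control libraries. Every IFN-beta value was above every control value, with control replicate 1 nearest to the IFN-beta group. The means were 153 ± 6.48 FPKM with IFN-beta and 127 ± 8.69 FPKM in control, 1.21-fold higher with IFN-beta (log2 difference 0.27 ± 0.055, 95% interval 0.15 to 0.39, limma adjusted p = 0.0040). Of all genes tested, 54% had groups that do not overlap, and 28.6% had them with IFN-beta above, as 8 of the 9 genes here had. The difference of PIEZO1 lay at the 79.7th percentile of all genes tested, so about 1 gene in 5 had a more positive one.

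Exons of PIEZO1 are crossed on the opposite strand, over 20.2% of their bases, by CTU2 and 3 genes known by clone names only, and whether counting used strand is not given in the sources used here. CTU2, a tRNA-modifying enzyme, had 1312 reads in the 3 IFN-beta libraries together and 1317 in the 3 control libraries (log2 difference -0.04 ± 0.081, limma adjusted p = 0.710). AC138028.4, one of these, had 207 reads in the IFN-beta libraries and 127 in the control libraries (log2 difference 0.45 ± 0.16, limma adjusted p = 0.0545). PIEZO1 itself had 5867 to 6768 reads per IFN-beta library and 4377 to 5703 per control library. The tested genes at a mean of at least 5 FPKM whose log2 values followed PIEZO1 most closely over the 6 libraries were UBAP2 (Pearson r = 0.9973), EEF1AKMT3, CDT1, DYNLL2 and MMP14 (r = 0.9951), out of 9799 compared. The points of these correlations share libraries and 2 groups, so they are a description only.

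PIEZO2, which senses touch in Merkel cells and sensory neurons, was at or under a floor of 3 reads in 3 of the 6 libraries and was not tested. The recovered reads were 0, 6 and 4 in the IFN-beta libraries and 3, 3 and 6 in the control libraries, on chromosome 18 from 10666483 to 11149569. That floor corresponds to between 0.0237 and 0.0280 FPKM for this gene, and no fold is given. Reads of so low a gene may be a multiple of those recovered, and the floor covers counting error only.

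TRPV4, a calcium-permeable channel opened by swelling, heat and lipids, is known in keratinocytes for a part in the barrier. It lies on chromosome 12 from 109783087 to 109833406 and had 3.23, 4.08 and 3.46 FPKM in the IFN-beta libraries, against 3.65, 3.58 and 3.25 FPKM in the control libraries. The groups overlapped, with IFN-beta replicate 1 below all controls and IFN-beta replicate 2 above them. The log2 difference was 0.03 ± 0.10, with a 95% interval of -0.20 to 0.26 (limma adjusted p = 0.837). Its sign turned under quantile normalization and when IFN-beta replicate 2 or control replicate 3 was left out.

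The coactivators differed from each other. WWTR1 (chromosome 3, 149517235 to 149736714) had 84.0, 88.7 and 83.5 FPKM in the IFN-beta libraries, against 62.3, 58.9 and 58.3 FPKM in the control libraries. The groups were well apart, at 85.4 ± 2.89 FPKM with IFN-beta and 59.8 ± 2.13 FPKM in control, 1.43-fold higher with IFN-beta (log2 difference 0.51 ± 0.043, limma adjusted p = 2.76e-05). YAP1 (chromosome 11, 102110447 to 102233424) had 89.0, 89.7 and 90.5 FPKM in the IFN-beta libraries, against 84.5, 85.8 and 82.6 FPKM in the control libraries. Its groups did not overlap either, but the log2 difference was 0.09 ± 0.034, with a 95% interval of 0.01 to 0.17, and did not pass (limma adjusted p = 0.0645). With all libraries brought to equal sums YAP1 passed, with a log2 difference of 0.14 (limma adjusted p = 0.0145).

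The balance of the pair was computed within each library. The log2 ratio of YAP1 over WWTR1 was 0.08, 0.01 and 0.12 in the IFN-beta libraries, against 0.44, 0.54 and 0.50 in the control libraries. Thus in FPKM as deposited WWTR1 ran at 0.944, 0.990 and 0.922 of YAP1 with IFN-beta, and at 0.738, 0.687 and 0.706 of it in control. The difference in log2 ratio was -0.42 (exact permutation, two-sided, p = 0.1, below which 6 libraries in equal groups cannot go, and 0.2 adjusted over 4 pairs). WWTR1 shares 9.45% of its exonic bases with its antisense RNA WWTR1-AS1, which had 1.48 ± 0.251 FPKM with IFN-beta and 0.891 ± 0.250 FPKM in control (log2 difference 0.52 ± 0.17, limma adjusted p = 0.0357). That antisense RNA had 122 reads in the 3 IFN-beta libraries and 72 in the 3 control libraries, where WWTR1 had 3706 to 4015 reads per IFN-beta library and 2369 to 2896 per control library. YAP1 shares 9.97% of its exonic bases with AP000942.2 on the opposite strand. That gene had 215 reads in the 3 IFN-beta libraries and 167 in the 3 control libraries (log2 difference 0.29 ± 0.14, limma adjusted p = 0.115). Reads of WWTR1 or YAP1 and of the gene opposite cannot be told apart if counting ignored strand.

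**Figure D2:**
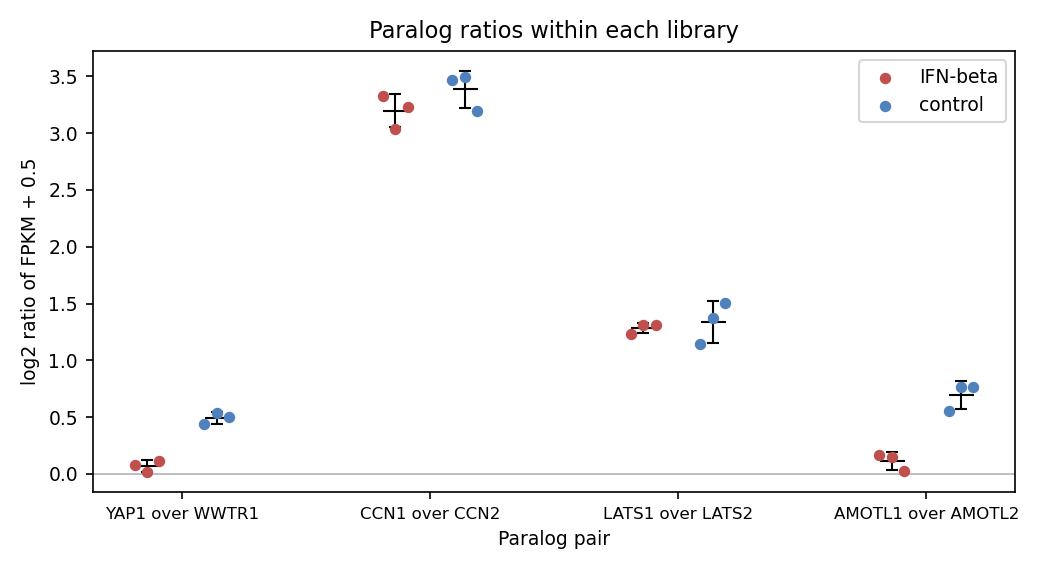
Within-library log2 ratio of FPKM + 0.5 for 4 paralog pairs, with 1 point per library, IFN-beta left of control, and the mean with SD in black (n = 3 per group). The ratios of YAP1 over WWTR1 and of AMOTL1 over AMOTL2 were lower in every IFN-beta library, while those of the LATS pair overlap, as do those of the CCN pair on this scale but not in FPKM without the pseudocount.

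All 5 target genes were higher with IFN-beta, though CCN2 was tested only through its level in the IFN-beta libraries. ANKRD1, an ankyrin-repeat protein found in the nucleus and in heart muscle, had the largest difference of the 10 genes. It lies on chromosome 10 from 90912096 to 90921087 and had 8.33, 8.75 and 9.44 FPKM in the IFN-beta libraries, against 2.27, 1.51 and 2.36 FPKM in the control libraries. The lowest IFN-beta value was over 3 times the highest control value. The means were 8.84 ± 0.559 FPKM with IFN-beta and 2.04 ± 0.466 FPKM in control, a ratio of 4.33, with a log2 difference of 1.89 ± 0.14 (95% interval 1.58 to 2.20, limma adjusted p = 1.03e-05). This difference stood at the 99.1th percentile of all genes tested, and none of the exonic bases of ANKRD1 is shared with another gene.

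CCN1 and CCN2 encode secreted matricellular proteins that bind integrins and shape matrix deposition in wounds. CCN1 (chromosome 1, 85580761 to 85584589) had 16.04, 15.4 and 17.1 FPKM in the IFN-beta libraries, against 9.98, 7.87 and 7.74 FPKM in the control libraries. The groups were apart, with a mean ratio of 1.90 and a log2 difference of 0.89 ± 0.095 (limma adjusted p = 1.18e-04). CCN2 (chromosome 6, 131948176 to 131951372) was far lower, at 1.15, 1.43 and 1.38 FPKM in the IFN-beta libraries, against 0.448, 0.242 and 0.397 FPKM in the control libraries. These values rest on 81, 89 and 99 reads with IFN-beta and on 31, 17 and 24 reads in control. The control mean was under the filter of 0.5 FPKM, so CCN2 was tested only through its level with IFN-beta. The ratio of the CCN2 means was 3.64 and the log2 difference 1.08 ± 0.16 (limma adjusted p = 7.74e-04). Near the pseudocount this difference understates the ratio, and it was 1.64 with a pseudocount of 0.1 and 1.89 when the recovered reads were tested with voom.

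In each library CCN1 exceeded CCN2, by 13.96-, 10.7- and 12.4-fold in FPKM with IFN-beta and by 22.3-, 32.5- and 19.5-fold in control. These ratios, taken without a pseudocount, did not overlap between the groups. With the pseudocount of 0.5, which is above the control level of CCN2, the log2 ratio overlapped (difference -0.19, two-sided exact permutation p = 0.3, and 0.4 adjusted over 4 pairs). The difference was -0.72 with a pseudocount of 0.1 (exact permutation p = 0.1) and 0.087 with a pseudocount of 1, so its size and sign depend on that choice. Of the other CCN genes, CCN3 had 4.64 ± 0.390 FPKM with IFN-beta and 4.09 ± 0.761 FPKM in control and did not pass (limma adjusted p = 0.289), and CCN4, CCN5 and CCN6 were under the filter.

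The feedback genes differed less. AMOTL2, an angiomotin that tethers YAP and TAZ at junctions, lies on chromosome 3 from 134355874 to 134375479. It had 46.7, 48.5 and 52.2 FPKM in the IFN-beta libraries, against 34.4, 26.9 and 26.5 FPKM in the control libraries. Every IFN-beta library was above every control library, the mean ratio was 1.68 and the log2 difference 0.75 ± 0.094 (limma adjusted p = 3.11e-04). Its paralog AMOTL1 had 53.2 ± 0.667 FPKM with IFN-beta and 47.4 ± 2.81 FPKM in control (limma adjusted p = 0.0231), and the log2 ratio of AMOTL1 over AMOTL2 averaged 0.11 ± 0.079 with IFN-beta and 0.70 ± 0.13 in control. The difference in the ratio was -0.58 (exact permutation, two-sided, p = 0.1, again the lowest reachable, and 0.2 adjusted over 4 pairs). The founding member AMOT was lower, with 5.16 ± 0.383 FPKM with IFN-beta and 6.48 ± 0.864 FPKM in control (log2 difference -0.30 ± 0.10, limma adjusted p = 0.0454).

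LATS2, a kinase that phosphorylates YAP and TAZ, lies on chromosome 13 from 20973036 to 21061586. It had 8.32, 7.86 and 7.52 FPKM in the IFN-beta libraries, against 7.07, 5.61 and 5.27 FPKM in the control libraries. The groups were apart by a small margin (log2 difference 0.38 ± 0.10, 95% interval 0.15 to 0.62, limma adjusted p = 0.0170). The call ended without IFN-beta replicate 1 (limma adjusted p = 0.0612), without control replicate 2 (0.0600) and without the filter on level (0.0568). LATS1, its paralog, was higher too, with 19.99 ± 0.502 FPKM with IFN-beta and 15.8 ± 0.472 FPKM in control (log2 difference 0.33 ± 0.049, limma adjusted p = 7.86e-04), and the log2 ratio of the pair overlapped between the groups (difference -0.05, two-sided exact permutation p = 0.7, and 0.7 adjusted over 4 pairs).

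**Figure D3:**
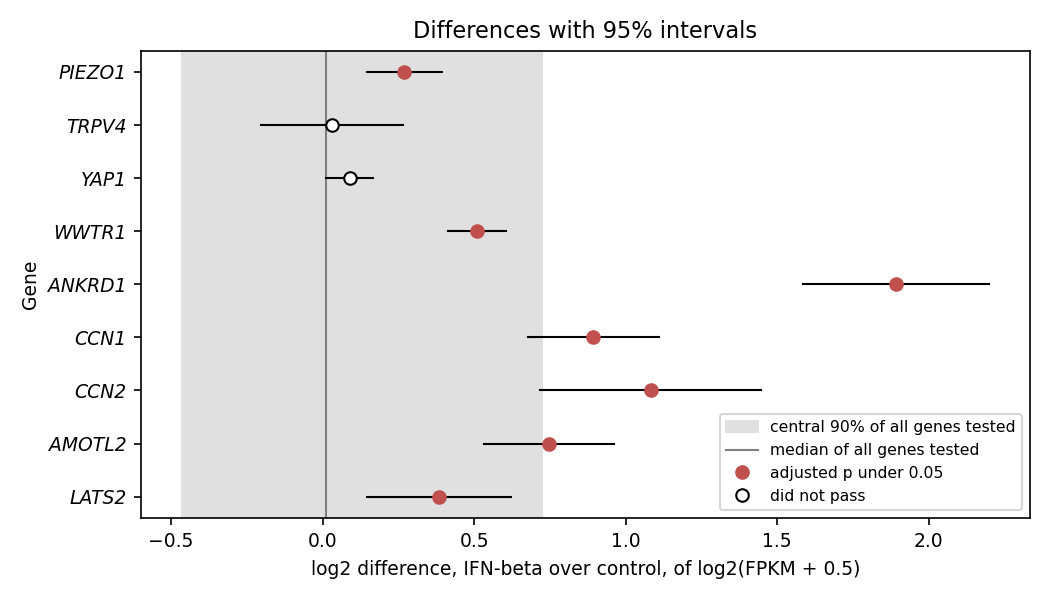
Log2 difference of log2(FPKM + 0.5), IFN-beta over control, with its 95% interval, for the 9 genes tested, filled where the limma adjusted p was under 0.05. The grey band is the central 90% of all genes tested (-0.46 to 0.72), and ANKRD1, CCN2, CCN1 and AMOTL2 lie beyond its upper edge.

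The control libraries were not alike in these genes. Control replicate 1 was the highest of the 3 controls in 7 of the 9 genes tested, that is, in all but YAP1 and ANKRD1. Over all genes tested it was the highest in 39.7%, and over the genes called higher in 47.1%. Leaving out the highest control raises a difference by construction, and leaving out the lowest control reduces it by construction. Without control replicate 1 the log2 difference was 0.32 for PIEZO1, 1.00 for CCN1, 0.87 for AMOTL2 and 0.50 for LATS2. Control replicate 3 was the lowest of the 3 controls in 7 of the 9 genes. Without control replicate 3 these differences were smaller, at 0.23, 0.83, 0.68 and 0.30 in the same order. What sets these control libraries apart was not tested, and the labels give every library's batch as unknown.

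Levels can be compared between genes only with care, because the length behind the FPKM was not that of the main transcript. From the steps of the values PIEZO1 had a length of 1408 bases, where its transcripts in GENCODE release 29 average 1408 bases and the longest has 8089 bases. Over 10135 genes with a mean of at least 200 reads, the recovered length divided by the mean transcript length had a median of 1.00, with 24.36% of genes within 1 base and 87.44% within 10%. Among the 10 genes CCN1 (2030 against 1420.5 bases), WWTR1 (1572 against 1327.2), TRPV4 (2750 against 2443.6) and PIEZO2 (4145 against 3703.9) were longer than that mean, and ANKRD1 (1790 against 1979) was shorter. Genes with many short annotated transcripts therefore have high FPKM for their reads, which leaves the comparison between groups within a gene untouched. As deposited, PIEZO1 had the highest mean of the 10 genes and of the 24 listed mechanosensitive channels, at 140.2 FPKM over the 6 libraries.

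Per kilobase of the longest transcript, a scale chosen after seeing the data, the order changed. YAP1 then stood highest of the 10 genes, at 47.7 ± 0.414 with IFN-beta and 44.8 ± 0.845 in control, in reads per kilobase scaled like the FPKM. PIEZO1 (26.7 ± 1.13 with IFN-beta and 22.1 ± 1.51 in control) and WWTR1 (26.7 ± 0.903 with IFN-beta and 18.7 ± 0.667 in control) could not be ordered with IFN-beta. AMOTL2 followed (20.2 ± 1.15 with IFN-beta and 12.03 ± 1.83 in control), then CCN1 (14.3 ± 0.788 with IFN-beta and 7.56 ± 1.11 in control). With IFN-beta, ANKRD1 (7.997 ± 0.505) was above LATS2 (4.33 ± 0.220). In control, LATS2 (3.28 ± 0.526) and TRPV4 (2.96 ± 0.180) were both above ANKRD1 (1.85 ± 0.422). On this scale the volume-regulated anion channel subunit LRRC8A (35.1 to 37.5 with IFN-beta and 29.8 to 30.8 in control) stood above PIEZO1 (25.4 to 27.3 with IFN-beta and 20.9 to 23.8 in control). The pannexin PANX1 (26.5 to 27.7 with IFN-beta and 23.4 to 26.1 in control) overlapped PIEZO1 in both groups, so the pair could not be ordered.

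Of 14 listed mechanosensitive channels tested, 8 were higher with IFN-beta, PIEZO1 among them, and 0 lower, with a median log2 difference of 0.19. The share called higher was thus 57.1%. Over all genes tested 22.5% were called higher, 19.9% lower and 42.4% either way. The epithelial sodium channel subunit SCNN1A (34.7 ± 1.61 FPKM with IFN-beta and 25.1 ± 2.42 FPKM in control, log2 difference 0.47), the osmosensitive channel TMEM63A (0.44), TMC6 (0.33) and the polycystin PKD1 (0.29) had the largest differences. The most abundant that did not pass was TRPM7, a channel with a kinase domain, at 60.5 ± 2.50 FPKM with IFN-beta and 64.9 ± 3.47 FPKM in control (log2 difference -0.10, limma adjusted p = 0.145).

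Of 22 tested genes that act beside PIEZO1 or handle calcium, 5 were higher (22.7%) and 6 lower (27.3%), shares near those of all genes tested (22.5% and 19.9%), with a median of -0.03. MDFI, a protein of the family whose members bind PIEZO channels as auxiliary subunits, was higher (37.1 ± 3.08 FPKM with IFN-beta and 30.7 ± 1.31 FPKM in control, log2 difference 0.27), while MDFIC stood at 9.91 ± 0.907 FPKM with IFN-beta and 11.1 ± 0.293 FPKM in control and did not pass (limma adjusted p = 0.121). The store-operated calcium entry pair ORAI1 (0.38) and STIM1 (0.37) was higher, and the calcineurin subunit PPP3CB (-0.46) and TMEM120A (-0.42), reported to act on PIEZO channels, were lower.

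Hippo kinases and scaffolds were mostly higher. Of 29 tested genes 17 were higher (58.6%), AMOTL2 and LATS2 among them, and 4 lower (13.8%), with a median of 0.18. Over all genes tested the shares were 22.5% and 19.9%. The calls in the Hippo list fell to 13 in all without control replicate 2. Over all genes tested the calls fell there too, from 3419 higher and 3012 lower to 2882 and 2370. The MST partner SAV1 (88.7 ± 3.00 FPKM with IFN-beta and 56.7 ± 2.76 FPKM in control, log2 difference 0.64 ± 0.047), the casein kinase CSNK1E (0.47), the kinase TAOK3 (0.39) and LATS1 led the genes outside the 10, and MOB1A, a LATS cofactor, did not pass (-0.08). Among YAP and TAZ with their nuclear partners, 9 of 18 tested were higher (50%) and 2 lower (11.1%), beside the same shares of all genes. The AP-1 subunit FOSL1 had 183 ± 6.64 FPKM with IFN-beta and 76.1 ± 8.21 FPKM in control (log2 difference 1.27 ± 0.073), and the basal keratinocyte factor TP63 had a log2 difference of 0.41, SMAD3 one of 0.38 and RUNX1 one of 0.38. Of the TEAD genes, TEAD1 (0.23) and TEAD4 (0.22) were higher, and TEAD2 (limma adjusted p = 0.156) and TEAD3 (limma adjusted p = 0.358) did not pass.

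A set of 22 YAP and TAZ targets described in cancers holds ANKRD1, CCN1, CCN2, AMOTL2 and LATS2. Of its 21 tested genes 13 were higher (61.9%) and 4 lower (19.0%), beside 22.5% and 19.9% of all genes tested. CCN2, 1 of the 13, was tested only through its level with IFN-beta. Of the 16 outside the 10 genes 8 were higher and 4 lower, with a median log2 difference of 0.26. The ectonucleotidase NT5E (CD73) had 153 ± 4.47 FPKM with IFN-beta and 28.3 ± 2.48 FPKM in control, the largest difference of the set (log2 difference 2.41 ± 0.060, limma adjusted p = 6.19e-09). Among the genes outside the 10, tissue factor F3 (0.95) and the growth arrest gene GADD45A (0.76) followed. The matrix protein CCDC80 (-0.73), the growth factor TGFB2 (-0.50), the phosphatase PTPN14 (-0.20) and the membrane repair protein MYOF (-0.16) were lower. IGFBP3 and CRIM1 did not pass, with log2 differences of 0.09 and 0.10. GGAATG or its reverse stood in 5 of the 13 windows of the set's genes outside the 10, or 38.5%, beside 11.9% of all windows. As these genes too were listed as YAP and TAZ targets, this share is not a test. Of the genes with these 5 windows, NUAK2 was higher, PTPN14 and TGFB2 were lower, and AXL and FOXF2 did not pass.

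**Figure D4:**
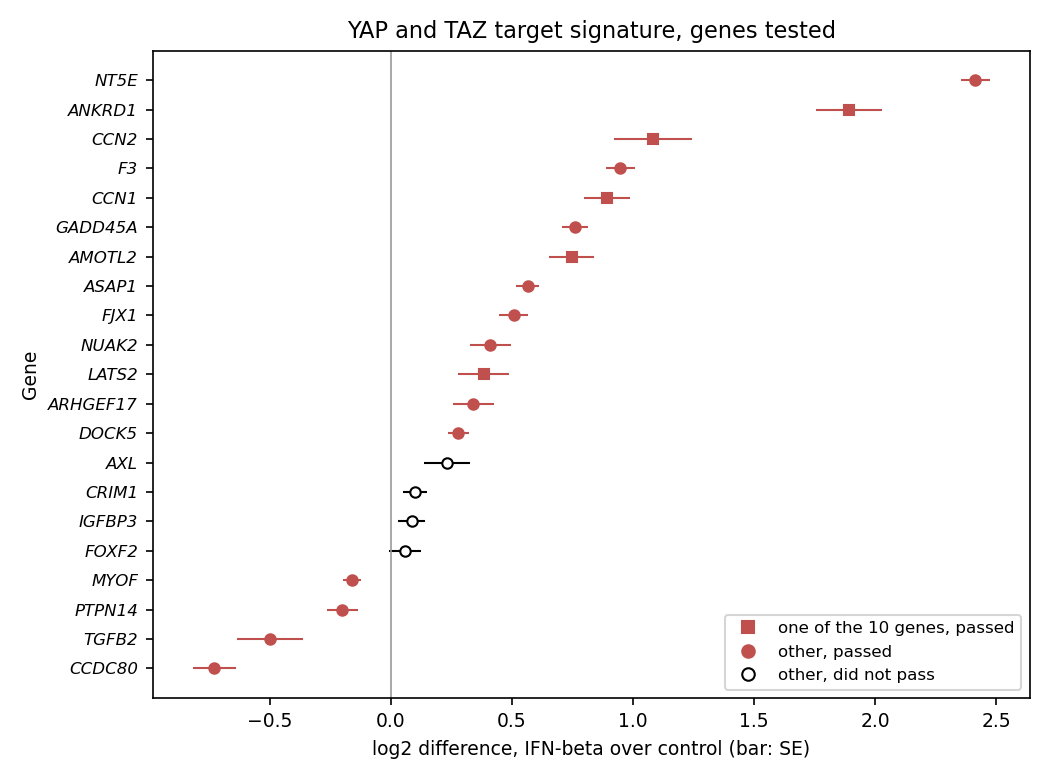
Log2 difference, IFN-beta over control, with SE, for the 21 tested genes of the YAP and TAZ target set, with squares for the 5 that are among the 10 genes and open points for genes that did not pass. NT5E (2.41) and ANKRD1 (1.89) stand at the top and CCDC80 (-0.73) at the bottom.

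Structural genes of mechanosensing did not share one direction. Among focal adhesion linkers 10 of 24 were higher (41.7%) and 5 lower (20.8%), with a median of 0.05. Over all genes tested the shares were 22.5% and 19.9%. The tensin TNS4 had 220.4 ± 5.52 FPKM with IFN-beta and 110.9 ± 9.39 FPKM in control (log2 difference 0.99), and BCAR1 and PTK2B were also higher. The list for SRF, the other actin-linked transcription path, holds the regulators SRF, MRTFA and MRTFB as well as targets. Of its 19 tested genes 6 were higher (31.6%) and 4 lower (21.1%), beside 22.5% and 19.9% of all genes tested. The list median was 0.09. EGR1 (1.19), ACTA2 (1.12), FOS (0.99) and SRF itself (0.28) were among the higher, and ANLN (-0.49) and MRTFB (-0.36) among the lower. Of the nuclear envelope genes, 0 of 9 were higher and 5 lower (55.6%, beside 19.9% of all genes tested), with a median of -0.17. Among the lower were SUN2, which links the nucleus to the cytoskeleton (33.4 ± 1.35 FPKM with IFN-beta and 54.6 ± 4.14 FPKM in control, log2 difference -0.70), LMNB1 (-0.44), LMNB2 (-0.35) and LBR (-0.25). Abundant genes such as FLNA, ACTN4, LMNA and SUN1 did not pass.

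**Figure D5:**
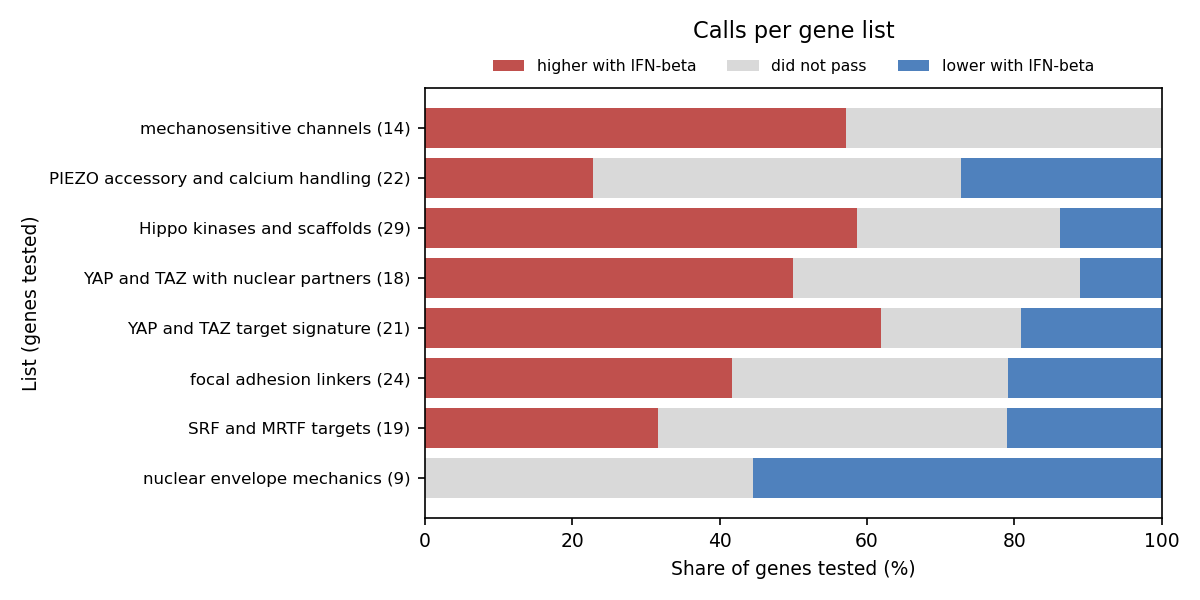
Share of tested genes (%) called higher with IFN-beta, not passed, or called lower, for 8 gene lists with the number tested in brackets. The channel list holds no gene called lower and the nuclear envelope list none called higher, while 22.5% of all genes tested were higher and 19.9% lower.

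Higher genes made up 53.2% of all calls, against 63.2% when libraries were brought to equal sums and 41.3% with quantile normalization, and these scalings moved the median of all genes to 0.05 and -0.05. The 7 genes called higher among the 10 kept that direction and that call under both.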

How the data were processed

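Per the file headers, the authors deposited 1 table of FPKM per gene with identifiers, symbols and coordinates. The submitters' processing notes list the mouse builds GRCm38 and mm10, but 60671 of 60671 identifiers are human, so the coordinates printed are the table's own, and GRCh38 is inferred for them, since those of CCN2, ANKRD1 and YAP1 adjoin their RefSeq GRCh38.p14 windows. The extract protocol in the labels names CLC Genomics Workbench 11.0.1 for no stated step, and the series' design text speaks of mouse skin. The aligner, the counting and any use of strand were not given in the sources used here. No label describes the libraries as separate cultures. The p-values therefore reflect spread among libraries alone, which may be technical.

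Whole reads were recovered from the steps of the FPKM in 30507 of 30507 genes above 0, within 0.01 reads. Lengths were searched until whole reads fitted, which genes with few reads meet easily, so this share does not test the recovery. FPKM are not counts, so log2(FPKM + 0.5) was tested with limma 3.58.1 (R 4.3.3, two-sided, eBayes with a trend), for the 15163 genes reaching a mean of at least 0.5 FPKM. Paralog ratios were tested by exact permutation with scipy 1.17.1. The fit was also run on simulated counts with far fewer changed genes than were called here, so that run is no check on these calls. Exon sharing used GENCODE release 29, and promoter sequences came from RefSeq. The scale per longest transcript, the order of control libraries, the overlapping genes and the promoter share of the target set were added after seeing the data. Genes outside the 10 were named by list, as up to 4 called by size of difference (not overlapping, at least 1 FPKM in the higher group) and up to 2 not passed by level, some omitted for length and some not reported here. MDFI, MDFIC, the TEAD genes, AMOT, CDH5, SOX2, FBLN1, KRT15, COL17A1, NUAK2, AXL, FOXF2, PTPN14, TGFB2, MYOF and overlapping genes were named after their values were seen. The genes and lists were chosen with earlier results of these data known. Alternatives were other pseudocounts, filters, scalings and variance models, the replicate block, voom and each library left out.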

Additional observations from a re-analysis of the deposited data

How the results depend on the processing

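ANKRD1, CCN1, CCN2, AMOTL2, WWTR1 and PIEZO1 kept their direction and their call under every alternative in which they were tested, with log2 differences of 1.70 to 2.15, 0.83 to 1.00, 0.77 to 1.89, 0.68 to 0.87, 0.47 to 0.56 and 0.22 to 0.32. CCN2 was not tested at a minimum mean of 2 FPKM, which left 1 called gene in the CCN family. LATS2 lost its call without the filter on level (0.38) and ran from 0.30 to 0.50 with single libraries left out. YAP1 gained one after rescaling to the same sum (0.14). TRPV4, never called, was -0.078 after quantile normalization and ran from -0.054 to 0.094 with single libraries left out. The CCN1 over CCN2 difference was 0.087 with a pseudocount of 1, -0.72 with one of 0.1 and -0.28 to -0.11 with single libraries left out, and that of LATS1 over LATS2 ran from -0.15 to 0.032 with single libraries left out. Calls among the Hippo genes numbered 13 to 18 with single libraries left out, the lowest without control replicate 2, against 17 higher and 4 lower with all libraries. Over all genes tested, calls in both directions were also fewer with each single library left out.

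Of the abundant genes that did not pass, ACTN4 was -0.0089 after quantile normalization, -0.013 with median-of-ratios factors and -0.040 to 0.073 with single libraries left out. CALM3 (-0.0057) and SUN1 (-0.019) turned after quantile normalization, and SUN1 ran from -0.0035 to 0.062 with single libraries left out. FLNA (0.010) and LMNA (0.0018) turned after rescaling to the same sum and ran from -0.088 to 0.035 and from -0.086 to 0.0057 with single libraries left out. The cause of these changes was not tested. Same-numbered libraries of the 2 groups did not deviate together (r = -0.05, -0.10 and -0.06 across genes), and the main fit did not pair them. This check cannot show whether same-numbered libraries were prepared together. With the replicate block 5817 genes were called, against 6431, and PIEZO1 kept its call (limma adjusted p = 0.0123). Depth limits PIEZO2 and, in control, CCN2.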
